A study of Mus musculus with 37 samples.

Results

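Left ventricles collected 1 day and 3 days after cardiac arrest were compared in 8 of the 37 libraries of a mouse RNA-sequencing series, 4 libraries on each day. The comparison took all genes with a deposited value of at least 0.5 FPKM (fragments counted per kilobase of a gene's length, scaled to 1e6 fragments) in 4 or more of these 8 libraries, which left 13134 of the 56748 genes in the table. It sets the heart on the first day after resuscitation against the same model on day 3. All mice were male or female C57BL/6J mice aged 8 to 10 weeks and were anesthetized with isoflurane. Arrest mice were intubated and ventilated, received potassium chloride into the left ventricle, stayed in asystole for 8 min, and were resuscitated with adrenaline given into the ventricle and chest compressions. Adr mice, called sham in the labels, were ventilated too and received saline and then adrenaline without an arrest, and Naïve mice had anesthesia alone. The model therefore carries adrenaline and ventilation in both arms, and only mice alive on the day of collection were sampled. The labels name the tissue as heart, and RNA came from the left ventricle. No source used here mentions pooling or ties a library to a mouse, so p-values measure the spread between these libraries. By Xist and the Y-linked gene Ddx3y, 2 of the 4 libraries on each day were from males and 2 from females.

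A heart deprived of blood and then reperfused first passes through an acute phase. In it, stress hormones, early transcription factors and liver-type acute phase genes are switched on, and neutrophils enter the tissue. A repair phase follows, in which matrix genes take over. Throughout, the cardiomyocyte depends on mitochondria, which burn mainly fatty acids and pass electrons along complexes I to IV to drive the ATP synthase, complex V. Most subunits of these complexes are encoded in the nucleus and a few in the mitochondrial genome.

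Libraries of day 1 held 13.97 to 16.10 M fragments counted on genes (M, 1e6 fragments) and those of day 3 held 14.81 to 30.18 M, the latter in replicate 4. The mitochondrial genome took 21.7 to 27.3% of the fragments on day 1 and 24.5 to 28.6% on day 3. Distances between libraries were the root of the summed squared differences in log2(FPKM + 1), with a median of 52.2 within day 1, 66.3 within day 3 and 67.7 between the days, so the day 3 libraries lay about as far from each other as from day 1. Summed FPKM of 7 cardiomyocyte markers, among them Myh6 and Tnnt2, was 12700 to 14599 on day 1, and was 6561, 12404, 12441 and 8288 in replicates 1 to 4 of day 3. All 7 were tested, and Myh6, the adult heavy chain of cardiac myosin, ranged from 930.9 to 1787 FPKM over the 8 libraries labelled heart. The sums did not overlap, and their difference had the smallest p that an exact two-sided permutation test of 4 against 4 can give, 0.029, which became 0.34 after adjustment over 24 library measures. In bulk RNA, fewer cells of a type and less RNA per cell cannot be told apart.

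From day 1 to day 3, 45 genes fell and 11 rose (limma, adjusted p at most 0.05 over the 13134 genes), which is 0.343% and 0.0838% of the genes tested, or 0.426% in either direction. The falls were led in size by Car4, Lgals4 and Tacc2, and by p by Dbi and Mrps17. Insig1, Ogn and Igf1 had the largest rises. Under quantile scaling 17 genes fell and 8 rose. In 51 of the 56 called genes no library of one day overlapped the other day. Over all genes tested, every day 1 library lay above every day 3 library in 3.97% and every day 3 library above every day 1 library in 2.84%. The largest falls and rises named below were taken from genes without such overlap, apart from members of gene lists. Changes below run from day 1 to day 3 on the log2(FPKM + 1) scale, and values of replicates are in FPKM in the order 1 to 4. Counts of list members with a negative change stand beside 50.2% of all genes tested.

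**Figure D1:**
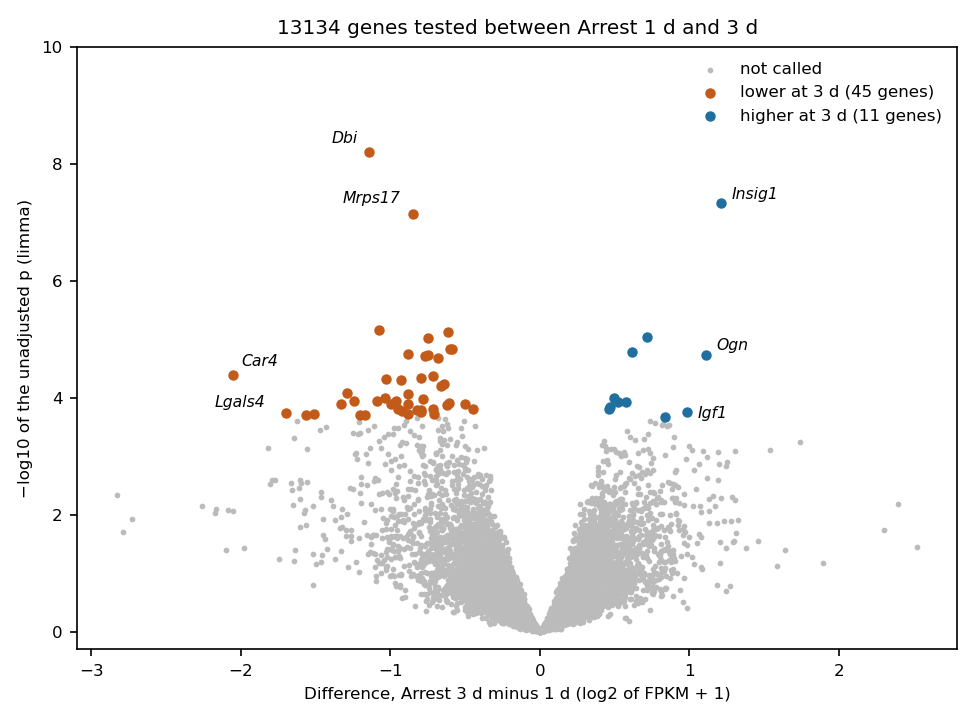
Change from day 1 to day 3 after arrest (x axis, log2 of FPKM + 1) against the −log10 of the unadjusted limma p (y axis) for the 13134 genes tested, with the 45 genes called lower on day 3 in orange and the 11 called higher in blue. Dbi, Insig1 and Mrps17 stand above the other called genes, and genes with the widest changes, outside ±2, are mostly grey.

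The number of calls depended on the libraries in the fit, which took the spread from all 37. The methods exclude 1 poor-quality Adr library of day 3 without saying which, and the table holds 4. Without Adr day 3 replicate 3, whose mitochondrial share was 9.36%, the smaller shared spread gave 205 falls and 88 rises, 1.56% and 0.67% of the genes, and all 56 genes were among them. When only the 8 Arrest libraries were fitted no gene passed (limma, 1553 genes at an unadjusted p under 0.05, lowest adjusted p 0.0985). Without replicate 1, 2, 3 or 4 of day 1 the counts were 6, 14, 3 and 169, and without those of day 3 they were 138, 43, 14 and 10. Dbi, Mrps17 and Insig1 kept their calls in all 8 of these fits. Of the other called genes, 28 kept theirs in 2 of the 8 fits, 5 in 1 and 1 in 0.

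Car4 and Lgals4 showed the largest falls. Car4 encodes carbonic anhydrase 4, which stands on the outer face of capillary and muscle membranes and converts carbon dioxide and bicarbonate. It measured 44.2, 40.7, 52.7 and 21.2 FPKM on day 1 and 10.1, 11.6, 5.79 and 7.04 FPKM on day 3. No library overlapped, although replicate 4 of day 1 was the lowest of its group, and the change was −2.05 (SE 0.43, adjusted p = 0.0328). The mean of day 3 was near that of Naïve hearts, 10.3 FPKM. Lgals4, a galactose-binding lectin best known from gut epithelium, measured 23.8, 28.05, 24.9 and 13.6 FPKM on day 1 and 4.74, 11.5, 5.92 and 3.94 FPKM on day 3, a change of −1.70 (SE 0.40, adjusted p = 0.0474). Its lowest day 1 value, again of replicate 4, stayed above its highest day 3 value. Car4 kept its call in 3 of the 8 fits without 1 Arrest library, and Lgals4 in 2. With the unexplained number of the sample descriptions as a covariate both lost their calls (limma, adjusted p = 0.090 and 0.068). That number largely follows the day in these libraries. Lgals4 also lost its call with each library's trend with gene length removed (limma, adjusted p = 0.0592).

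Dbi had the smallest p of all genes. It encodes the acyl-CoA binding protein, which carries long-chain acyl-CoA in the cytosol. Dbi measured 131, 95.5, 120 and 111 FPKM on day 1 and 44.0, 49.8, 63.1 and 48.6 FPKM on day 3. The groups lay far apart, and the change was −1.14 (SE 0.15, adjusted p = 8.14e-05). Naïve hearts averaged 63.7 FPKM and ranged from 46.9 to 81.4 FPKM, which overlapped day 3 and lay below every day 1 library. Adr hearts moved the same way over these days (−0.89, adjusted p = 0.0051), and the test of the difference between the arms did not call Dbi.

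Several other enzymes fell. Mgst3, a microsomal glutathione transferase that reduces lipid peroxides, measured 244, 311, 400 and 314 FPKM on day 1 and 82.4, 193, 149 and 98.4 FPKM on day 3, without overlap (−1.33, SE 0.31, adjusted p = 0.0463). Nudt7, a peroxisomal enzyme that cleaves coenzyme A, changed by −1.07 (SE 0.20, adjusted p = 0.018), and Cyp4b1, a cytochrome P450 of fatty acid and xenobiotic oxidation, by −1.09 (SE 0.25, adjusted p = 0.0463). Acot2, a mitochondrial acyl-CoA thioesterase, changed by −1.29 (SE 0.29, adjusted p = 0.0463), but replicate 4 of day 1 (20.2 FPKM) lay below replicate 3 of day 3 (21.4 FPKM). Acot2 has a close neighbouring copy, Acot1, and reads shared between them could have been assigned to either. Msrb1, which repairs oxidized methionine, changed by −0.93 (SE 0.20, adjusted p = 0.0329). Mgst3, Cyp4b1 and Acot2 each kept the call in 2 of the 8 fits without 1 Arrest library, Msrb1 in 3 and Nudt7 in 5. With the description number as a covariate these enzymes lost their calls (limma, adjusted p from 0.068 to 0.116), except Nudt7 (0.0186). They also did with the gene length trend removed (limma, adjusted p from 0.0576 to 0.0587), again except Nudt7 (0.0174).

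The remaining named falls had varied roles. Tacc2, a microtubule and centrosome protein, changed by −1.56, Meig1, a gene known from meiosis, by −1.51, and Csdc2, an RNA-binding cold shock protein, by −1.24. Mbd1, a reader of methylated DNA, changed by −1.03, and Rmdn1, a regulator of microtubule dynamics, by −0.995. Each of these 5 separated the days in every library, which was a condition for naming them. Meig1 was low, from 1.06 to 5.13 FPKM on day 1 and from 0 to 1.03 FPKM on day 3, where few fragments stand behind a value. Further calls included Neat1 (−0.88), the long noncoding RNA that builds paraspeckles, and Ahr (−0.79), the aryl hydrocarbon receptor. Pdlim5 (−0.79) and Myl12a (−0.82), proteins of the Z-disc and of non-sarcomeric myosin, fell too, and in Pdlim5 the highest day 3 library (96.3 FPKM) lay above the lowest day 1 library (88.8 FPKM).

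**Figure D2:**
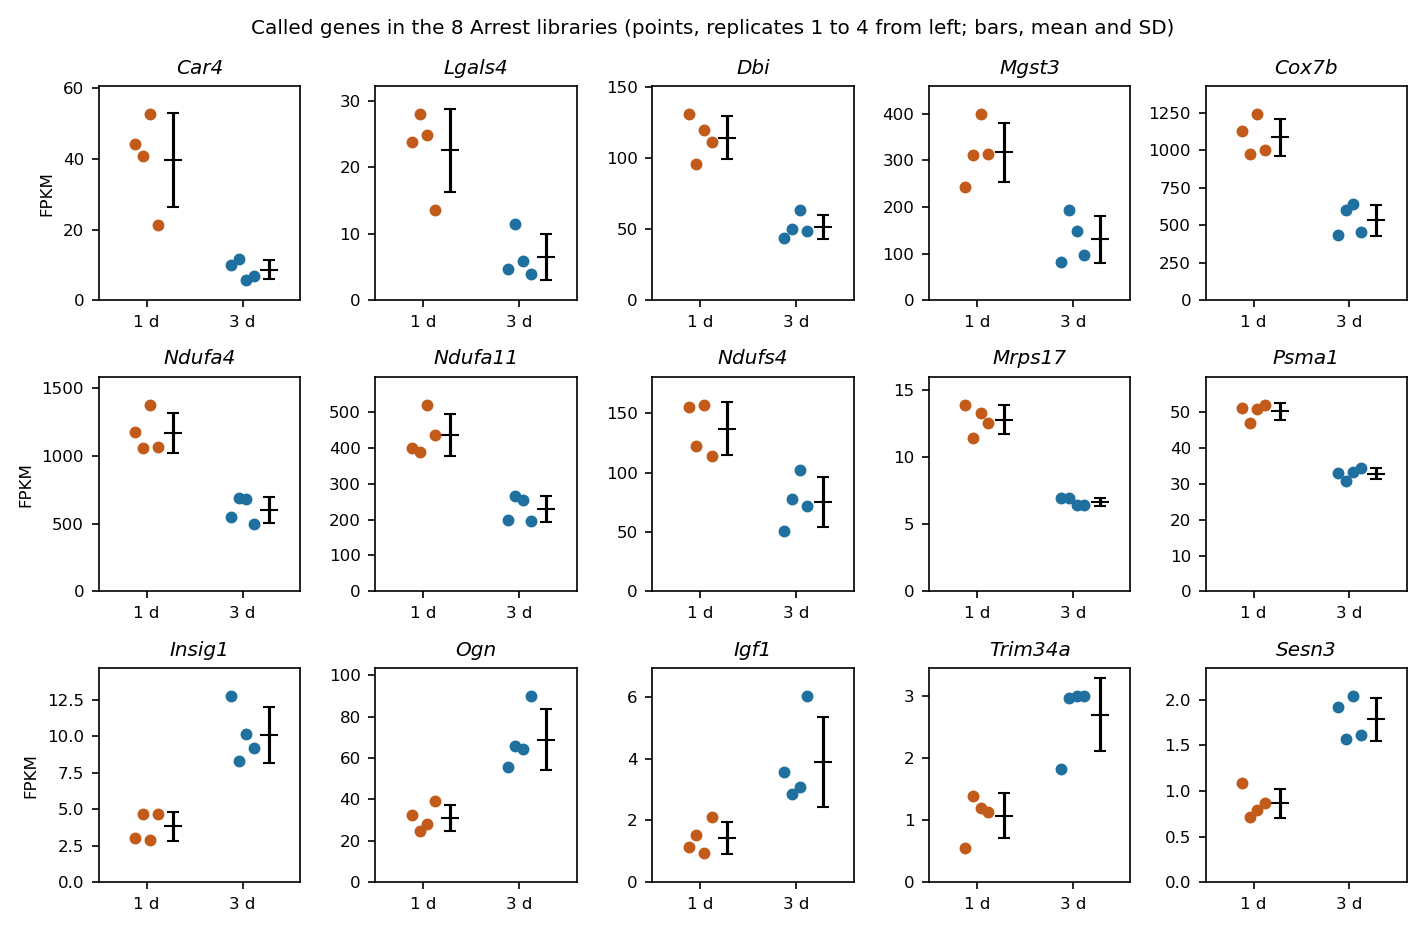
FPKM (y axis) of 15 called genes in each Arrest library on day 1 (orange) and day 3 (blue), with replicates 1 to 4 from left to right and the mean and SD beside them. The 2 days do not overlap in any of the 15 genes, and replicate 4 of day 1 is the lowest of its group in Car4 and Lgals4.

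Nuclear genes of the respiratory chain had lower means on day 3 throughout, and 5 of the 76 tested fell by the test. All 36 nuclear subunits of complex I changed in the negative direction, with a median of −0.46, and 2 of them fell by the test. All 40 nuclear subunits of complexes II to V did so too, with a median of −0.45 and 3 called. Over all genes tested the median change was 0.00, 50.2% were below 0, and 0.343% were called lower. Without Adr day 3 replicate 3 in the fit, which called 1.56% of all genes lower, 13 and 17 subunits were called, all of them lower. The 5 subunits lost their calls with each library's trend with gene length removed (limma, adjusted p from 0.0576 to 0.0693) and with the unexplained number of the sample descriptions as a covariate (0.088 to 0.116), and each kept its call in 1 or 2 of the 8 fits without 1 Arrest library.

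Ndufa11 and Ndufs4 were the called subunits of complex I. Ndufa11, an accessory subunit of its membrane arm, measured 399, 389, 519 and 434 FPKM on day 1 and 199.8, 266, 255 and 197 FPKM on day 3 (−0.93, SE 0.22, adjusted p = 0.0474). Ndufs4, an accessory subunit whose loss destabilizes complex I, measured 155, 123, 157 and 114 FPKM on day 1 and 50.7, 77.5, 102 and 71.6 FPKM on day 3 (−0.88, SE 0.20, adjusted p = 0.0463). Neither gene overlapped between the days, and replicate 1 of day 3 was lowest for Ndufs4. In Naïve hearts Ndufa11 ranged from 157 to 241 FPKM, which overlapped day 3 and lay below every day 1 library.

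Of complexes IV and V, Ndufa4, Cox7b and Atp5l were called. Ndufa4, first described with complex I and now counted to complex IV, measured 1176, 1061, 1377 and 1069 FPKM on day 1 and 549, 688, 680.5 and 495 FPKM on day 3 (−0.96, SE 0.22, adjusted p = 0.0463). Cox7b, a small structural subunit of cytochrome c oxidase, measured 1129, 974, 1243 and 1005 FPKM on day 1 and 438, 605, 641 and 455 FPKM on day 3 (−1.04, SE 0.23, adjusted p = 0.0463). Atp5l, the g subunit of the ATP synthase membrane part, measured 123, 110, 138 and 107 FPKM on day 1 and 66.8, 80.1, 69.6 and 58.4 FPKM on day 3 (−0.79, SE 0.19, adjusted p = 0.0474). All 3 separated the days, and replicates 1 and 4 of day 3 were the lowest in Ndufa4 and Cox7b. Gene models of such small subunits can share reads with processed copies elsewhere in the genome, and how those reads were counted is not given in the sources used here.

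The difference was uneven over the day 3 libraries. Medians of the deviation from each gene's mean over the 8 libraries were −0.47 and −0.47 for complex I in replicates 1 and 4 of day 3, and 0.06 and 0.04 in replicates 2 and 3. On day 1 they were 0.09, 0.13, 0.43 and 0.17. Complexes II to V gave −0.45 and −0.49 against 0.06 and −0.03 on day 3 and 0.16 to 0.45 on day 1. Replicates 1 and 4 of day 3 also had the lowest summed cardiomyocyte markers, 6561 and 8288 FPKM, and the part of this in the result was not tested. Transcripts of the mitochondrial genome, 15 in all, had a median change of 0.05 with none called, and mt-Co1, the core subunit of complex IV, changed by 0.00 (95% interval −0.63 to 0.63).

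**Figure D3:**
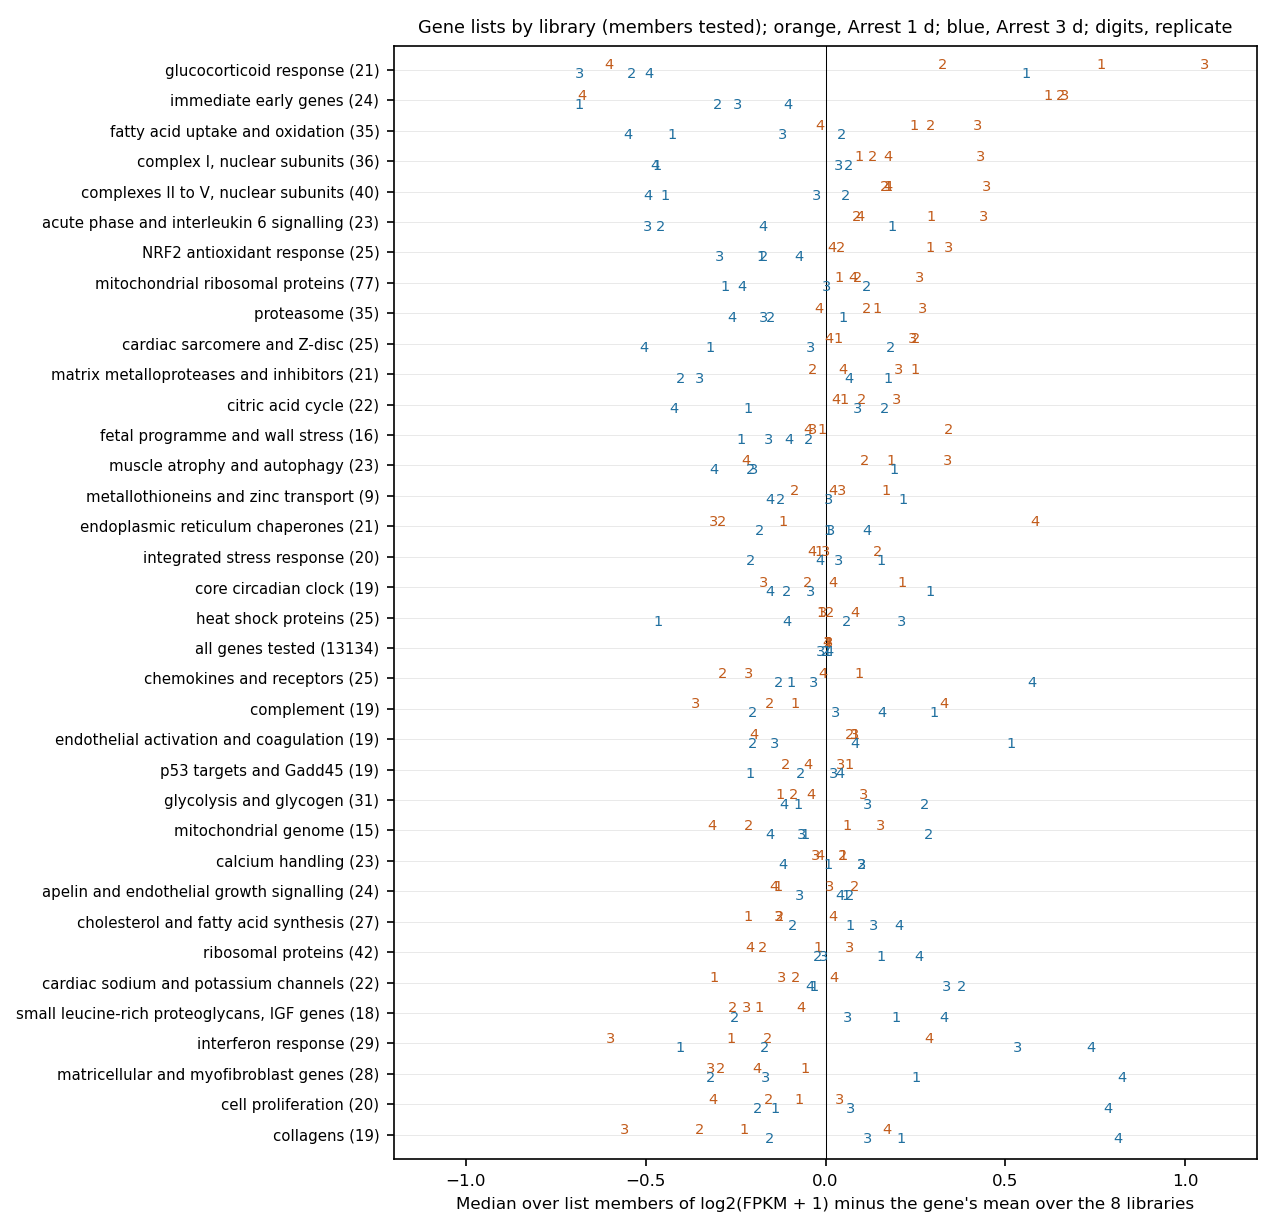
Median deviation of each list's genes from their mean over the 8 libraries (x axis, log2 of FPKM + 1) for the lists with at least 5 tested members (y axis, members tested in parentheses), with the digit of the replicate in orange for day 1 and in blue for day 3. Respiratory lists sit near −0.47 in replicates 1 and 4 of day 3 and near 0 in replicates 2 and 3, immediate early genes are low in replicate 4 of day 1, and collagens are highest in replicate 4 of day 3.

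Promoters of the 5 called respiratory genes are shown, and that of Insig1, which had the lowest p of the rises. Each line gives 250 bases before and 50 bases after the RefSeq start (build GRCm38.p6), 5′ to 3′ on the strand of the gene, with capitals where the letters match a searched motif on either strand. The motifs were GCGCATGCG (nuclear respiratory factor 1, NRF1), AAGATGGCG (YY1), AAGGTCA (oestrogen-related receptors), CCGGAAG (ETS factors), CCAAT (the CCAAT box) and TCACNCCAC (sterol response element). Ndufa11 lies at chr17:56717512-56717811 on the plus strand, and its capitals are an NRF1 match read on both strands, which overlap.
Ndufa11: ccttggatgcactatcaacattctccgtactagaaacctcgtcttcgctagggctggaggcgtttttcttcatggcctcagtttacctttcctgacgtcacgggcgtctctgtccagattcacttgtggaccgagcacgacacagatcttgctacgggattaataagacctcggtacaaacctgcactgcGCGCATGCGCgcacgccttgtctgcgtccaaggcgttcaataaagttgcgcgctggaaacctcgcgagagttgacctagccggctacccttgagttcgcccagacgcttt
Ndufa4 lies at chr6:11907401-11907700 on the minus strand, with no match.
Ndufa4: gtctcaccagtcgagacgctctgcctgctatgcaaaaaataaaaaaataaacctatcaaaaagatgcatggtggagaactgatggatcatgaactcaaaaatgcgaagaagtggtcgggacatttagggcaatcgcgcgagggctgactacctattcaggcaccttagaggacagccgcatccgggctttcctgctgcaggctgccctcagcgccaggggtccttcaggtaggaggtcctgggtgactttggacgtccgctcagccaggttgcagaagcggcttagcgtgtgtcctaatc
Cox7b lies at chrX:106015450-106015749 on the plus strand, with 2 CCAAT matches.
Cox7b: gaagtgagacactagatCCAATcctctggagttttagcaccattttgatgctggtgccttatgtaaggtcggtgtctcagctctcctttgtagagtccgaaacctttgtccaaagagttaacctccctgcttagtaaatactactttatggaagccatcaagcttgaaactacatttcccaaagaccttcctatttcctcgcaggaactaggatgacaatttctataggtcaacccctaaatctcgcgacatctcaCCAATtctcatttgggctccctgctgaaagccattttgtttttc
Ndufs4 lies at chr13:114388045-114388344 on the minus strand, with a YY1 match 35 bases after the start.
Ndufs4: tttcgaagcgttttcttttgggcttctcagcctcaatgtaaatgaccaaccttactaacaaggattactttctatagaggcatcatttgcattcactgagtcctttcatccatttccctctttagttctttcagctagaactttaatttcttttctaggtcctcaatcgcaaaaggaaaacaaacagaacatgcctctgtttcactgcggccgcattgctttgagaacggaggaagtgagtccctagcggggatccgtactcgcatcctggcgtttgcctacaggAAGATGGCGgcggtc
Atp5l lies at chr9:44920693-44920992 on the minus strand, with matches to the CCAAT box, NRF1, an oestrogen-related receptor and, at 2 places, ETS.
Atp5l: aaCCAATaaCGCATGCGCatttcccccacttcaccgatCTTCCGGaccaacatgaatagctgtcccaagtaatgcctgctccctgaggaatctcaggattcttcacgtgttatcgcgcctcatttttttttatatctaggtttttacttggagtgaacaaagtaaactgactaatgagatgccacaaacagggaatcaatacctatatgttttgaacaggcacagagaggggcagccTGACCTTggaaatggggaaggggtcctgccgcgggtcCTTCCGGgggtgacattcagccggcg
Insig1 lies at chr5:28071162-28071461 on the plus strand, with 1 CCAAT match on the opposite strand 216 bases before the start and none to the sterol response element.
Insig1: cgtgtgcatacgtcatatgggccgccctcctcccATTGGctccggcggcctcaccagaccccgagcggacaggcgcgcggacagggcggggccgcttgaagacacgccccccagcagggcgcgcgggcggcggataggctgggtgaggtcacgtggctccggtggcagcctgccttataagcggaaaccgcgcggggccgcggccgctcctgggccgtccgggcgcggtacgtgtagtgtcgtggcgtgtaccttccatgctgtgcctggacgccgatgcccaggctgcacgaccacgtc

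These letters were searched in all 32851 promoters of the RefSeq table and in the 68 promoters matched to 63 of the 76 respiratory chain genes tested. NRF1 letters stood in 1.75% of all promoters, 3.41% of those of genes tested and 10.3% of the respiratory promoters, YY1 letters in 1.40%, 2.95% and 10.3%, and the receptor letters in 4.72%, 3.24% and 11.8%. ETS letters stood in 8.86%, 17.0% and 20.6%, and CCAAT in 37.4%, 37.2% and 38.2%. In the 43 promoters of 35 genes that fell, NRF1 letters stood in 11.6%, or 5 promoters, and YY1 in 2.33%. The receptor letters stood there in 4.65%, ETS in 18.6% and CCAAT in 48.8%. In the 11 promoters of 10 genes that rose, CCAAT stood in 54.5%, ETS in 18.2% and YY1 in 9.09%. NRF1 and the receptor letters stood in 0.0% of those 11. The sterol letters occurred in 1.24% of all promoters and in none of those of the 10 genes that rose and could be matched. Of the 56 called genes, 45 had a promoter in the table. A match is a description of the letters alone.

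Genes of fatty acid uptake and oxidation had the lowest median of the metabolic lists. Of 35 members tested, 34 changed in the negative direction, the median was −0.56, and 1, Acot2, was called. Over all genes tested 50.2% changed in the negative direction and 0.343% were called lower. Median deviations of the list were −0.43 and −0.55 in replicates 1 and 4 of day 3, the libraries with the lowest cardiomyocyte marker sums, 0.04 and −0.12 in replicates 2 and 3, and −0.02 to 0.42 on day 1. The part of those markers in this was not tested. Plin5, which coats lipid droplets beside mitochondria, measured 121, 109, 158 and 48.9 FPKM on day 1 and 39.1, 54.8, 37.9 and 22.1 FPKM on day 3 (−1.43, adjusted p = 0.0543). Fabp4, a fatty acid carrier of capillary endothelium, measured 442, 304, 370.1 and 114 FPKM on day 1 and 112, 141, 114 and 96.9 FPKM on day 3 (−1.25, adjusted p = 0.0597). Pdk4, a kinase that holds back glucose oxidation when fatty acids are plentiful, measured 533, 348, 518 and 32.8 FPKM on day 1 and 19.7, 107, 71.2 and 61.2 FPKM on day 3 (−2.09, adjusted p = 0.197). In these 3 genes, whose values were seen before they were chosen, replicate 4 of day 1 lay within the day 3 range. The 22 citric acid cycle genes had a median of −0.15, with 21 below 0 and none called, and the 31 genes of glycolysis and glycogen a median of 0.05, again with none called.

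Some mitochondrial ribosome and proteasome genes fell too, and of those named Mrps17 kept its call most often. Mrps17, a protein of the small mitochondrial ribosomal subunit, measured 13.9, 11.4, 13.3 and 12.6 FPKM on day 1 and 6.93, 6.94, 6.42 and 6.41 FPKM on day 3. Every day 3 library was lower, with little spread, and the change was −0.85 (SE 0.12, adjusted p = 0.000312). Mrpl41 of the large subunit changed by −0.88 (SE 0.17, adjusted p = 0.018). Among the 77 mitochondrial ribosomal proteins tested, a list drawn up after values were seen, 65 changed in the negative direction, the median was −0.23 and 2 were called. Over all genes tested 50.2% changed in the negative direction and 0.343% were called lower. Median deviations of the mitochondrial ribosomal list were −0.28 and −0.23 in replicates 1 and 4 of day 3 and 0.11 and 0.00 in replicates 2 and 3. On day 1 they were 0.04 to 0.26. Psma1, a ring subunit of the proteasome core, measured 51.3, 46.9, 50.8 and 52.1 FPKM on day 1 and 33.1, 30.8, 33.3 and 34.3 FPKM on day 3 (−0.60, SE 0.12, adjusted p = 0.018). Psmb2 (−0.64) and Psma6 (−0.62), of the same core, fell as well. Of 35 proteasome genes 33 changed in the negative direction, with a median of −0.23 and 3 called, beside the same shares of all genes. Psmb2 and Psma6 each kept the call in 2 of the 8 fits without 1 Arrest library, and Psma1 and Mrpl41 in 6. With the description number as a covariate, Mrpl41, Psma1, Psma6 and Psmb2 lost their calls (limma, adjusted p from 0.0598 to 0.149). Skp1, an adaptor of ubiquitin ligases outside that list, had the smallest called fall, −0.45. The 42 cytosolic ribosomal protein genes tested had a median of 0.19, with none called.

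Insig1 had the lowest p among the genes that rose. Its protein holds the sterol-sensing complex of SREBP in the endoplasmic reticulum and so limits cholesterol synthesis. Insig1 measured 3.01, 4.70, 2.90 and 4.69 FPKM on day 1 and 12.8, 8.30, 10.2 and 9.17 FPKM on day 3, without overlap (1.21, SE 0.17, adjusted p = 0.000307). Naïve hearts averaged 7.45 FPKM, above day 1 and below day 3. In Adr hearts the change was 0.21, and the difference between the arms, 1.00, had an unadjusted p of 0.000226 in limma and an adjusted p of 0.99. Of 27 genes of cholesterol and fatty acid synthesis tested, a list drawn up after values were seen, 22 changed in the positive direction with a median of 0.17, and Insig1 alone was called. Over all genes tested 0.0838% were called higher. Cyp51, which demethylates lanosterol, measured 0.432, 1.27, 1.44 and 1.71 FPKM on day 1 and 3.14, 2.81, 2.14 and 3.75 FPKM on day 3 (0.86, adjusted p = 0.0543).

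Ogn and Igf1 rose next in size. Ogn encodes osteoglycin, a small leucine-rich proteoglycan of the matrix. It measured 32.3, 25, 28.2 and 39.4 FPKM on day 1 and 55.6, 65.7, 64.1 and 89.9 FPKM on day 3 (1.11, SE 0.22, adjusted p = 0.018), and the Naïve mean was 79.8 FPKM. Igf1, a growth factor made in the heart mainly by stromal and immune cells, measured 1.148, 1.53, 0.946 and 2.11 FPKM on day 1 and 3.56, 2.86, 3.08 and 6.02 FPKM on day 3 (0.98, SE 0.23, adjusted p = 0.0474). In both genes all day 3 libraries lay above all day 1 libraries, and replicate 4 was the highest of each group. Ogn kept its call in 4 of the 8 fits without 1 Arrest library, and Igf1 in 3. With the description number as a covariate both lost their calls (limma, adjusted p = 0.068 and 0.107). Igf1 also lost its call with the gene length trend removed (limma, adjusted p = 0.0587). Of the 18 proteoglycan and insulin-like growth factor genes tested, a list drawn up after values were seen, these 2 were called and the median was 0.26. The share called higher over all genes tested was 0.0838%. Lum, a related proteoglycan, changed by 0.96 (adjusted p = 0.153), and Dcn by −0.34 (adjusted p = 0.565).

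The other 8 genes that rose were smaller in change. Trim34a, a member of an interferon-regulated family, changed by 0.84, Man1c1, a Golgi mannosidase, by 0.72, and Cpd, a carboxypeptidase of the secretory pathway, by 0.61. Sesn3, a sestrin that restrains mTORC1, changed by 0.58, Prkca, protein kinase C alpha, by 0.52, and Fkbp9, a prolyl isomerase of the endoplasmic reticulum, by 0.50. Slc45a4 and Sft2d2, a transporter and a membrane trafficking protein, each changed by 0.47. All 8 separated the days in every library, which was again a condition for naming them. Prps2, an enzyme of nucleotide synthesis, had the next lowest p among the rises that met the other conditions for naming and did not pass (0.74, adjusted p = 0.0524).

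Acute phase, stress hormone and early response genes had some of the widest differences and none was called. Serpina3n, an acute phase protease inhibitor, measured 218, 164, 183 and 94.7 FPKM on day 1 and 114, 13.1, 4.89 and 25.2 FPKM on day 3 (−2.83, SE 0.93, adjusted p = 0.157). Replicate 1 of day 3 overlapped day 1. Of 23 acute phase genes tested, 22 changed in the negative direction with a median of −0.37. Mt1, a metallothionein, measured 1196, 735, 1556 and 350.3 FPKM on day 1 and 869, 184, 132 and 158 FPKM on day 3 (−1.79, adjusted p = 0.122), with the same library of day 3 high. The 21 glucocorticoid response genes had a median of −0.91, with 15 below 0. Their median deviations were 0.76, 0.32, 1.05 and −0.60 on day 1 and 0.56, −0.54, −0.68 and −0.49 on day 3, so replicate 4 of day 1 sat with day 3 and replicate 1 of day 3 with day 1. Nppb, the natriuretic peptide of wall stress, measured 1881, 2288, 586 and 576 FPKM on day 1 and 181, 253, 402 and 526 FPKM on day 3 (−1.80, adjusted p = 0.129). All day 1 values exceeded all day 3 values, though by little in replicates 3 and 4.

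Immediate early genes were high in 3 of the 4 day 1 libraries. Fos, a subunit of the AP-1 factor, measured 43.7, 36.7, 37.9 and 1.55 FPKM on day 1 and 3.21, 4.47, 2.43 and 4.08 FPKM on day 3. Egr1, a zinc finger factor induced within minutes of a stimulus, measured 47.4, 47.4, 52.1 and 2.84 FPKM on day 1 and 4.29, 4.56, 6.02 and 4.68 FPKM on day 3. Day 1 replicate 4 was thus the lowest of all 8 libraries in both genes, and neither was called (adjusted p = 0.206 and 0.192). The sample descriptions carry a number, which no source used here explains, and these are 73, 70, 72 and 95 for day 1 and 90, 112, 106 and 107 for day 3. All day 1 numbers but 95 lie below every day 3 number, so the number largely follows the day. A split of the libraries by this number, for Fos and Egr1, was chosen after their values were seen. The 7 libraries with the lowest numbers in the series, 63 to 80, were 3 of Arrest day 1, 1 of Adr day 1 and 3 of Adr day 3. Egr1 measured 13.2 to 52.7 FPKM in them and 2.13 to 30.3 FPKM in the other 30 libraries, and Fos 7.61 to 45.0 and 0.739 to 35.6 FPKM. With this number as a covariate 15 of the 13134 genes passed, 7 lower and 8 higher, and Dbi, Mrps17, Nudt7 and Insig1 were among them. In that fit the number and the day cannot be fully told apart, whether a call is kept or lost.

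Matrix, proliferation and immune genes were higher in some day 3 libraries. Of 19 collagen genes tested 18 changed in the positive direction with a median of 0.52 and none called. Col3a1, a fibrillar collagen, measured 28.8, 17.7, 14.1 and 53.5 FPKM on day 1 and 37.5, 40.4, 55.9 and 179 FPKM on day 3 (1.29, adjusted p = 0.298). Postn, a matricellular protein of activated fibroblasts, measured 2.07 to 3.23 FPKM on day 1 and 51.6, 5.11, 4.10 and 90.6 FPKM on day 3 (2.39, SE 0.82, adjusted p = 0.179). Spp1, osteopontin, measured 0.286 to 2.04 FPKM on day 1 and 12.3, 3.498, 3.12 and 66.2 FPKM on day 3 (2.52, adjusted p = 0.323). Both genes were higher in every day 3 library and much higher in replicates 1 and 4, the libraries with the lowest respiratory chain medians. Median changes were 0.31 for 28 matricellular genes, 0.33 for 20 proliferation genes and 0.31 for 29 interferon response genes, with none called. Their median deviations were uneven over replicates 1 to 4 of day 3. They were 0.25, −0.32, −0.17 and 0.82 for matricellular and −0.14, −0.19, 0.07 and 0.79 for proliferation genes. Interferon response genes gave −0.41, −0.17, 0.53 and 0.74 on day 3 and −0.60 to 0.29 on day 1.

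Marker sums of other cells were spread in the same way. Inflammatory monocyte markers summed to 6.97 to 11.8 FPKM on day 1 and to 35.6, 10.3, 9.70 and 56.7 FPKM on day 3, and all 5 tested of 8 changed in the positive direction. Macrophage markers summed to 305 to 463 and 354 to 627 FPKM, with 12 of 14 in the positive direction. Neutrophil markers, 5 tested of 11, summed to 6.79 to 20.9 and 3.60 to 33.2 FPKM. MHC class II and dendritic cell markers summed to 88.9 to 104 FPKM on day 1 and to 29.5, 198, 212 and 236 FPKM on day 3, so replicate 1 lay below day 1 and the other 3 above it. None of these sums differed beyond the spread between libraries after adjustment over 24 measures (exact permutation tests, adjusted p from 0.43 to 0.95). B cell markers, 3 tested of 7, summed to 4.21 to 9.34 FPKM on day 1 and 6.62 to 16.5 FPKM on day 3 (exact permutation p = 0.057, adjusted p = 0.43). Natural killer markers, with 0 of 7 genes passing the minimum, and T cell markers, with 1 of 8, were near the lower limit of detection. The part of these cells in the matrix and immune values was not tested.

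Changes differed with gene length. Among genes whose mean reached 1 FPKM on either day, the 2958 shortest, of 57 to 2320 bases, had a median change of −0.09 and held 20 of the falls and 0 of the rises, and the 2956 longest had a median of 0.03. Genes that fell had a median length of 2345 bases and those that rose 5722, against 4028 over all tested genes. The rank correlation of a library's log2 ratio with gene length was −0.14, −0.16, −0.27 and −0.19 on day 1 and 0.05, −0.13, −0.09 and −0.10 on day 3, without overlap (exact permutation p = 0.029, adjusted p = 0.34). After each library's trend with length was removed, 15 of the falls and 4 of the rises kept their calls, among them Dbi, Mrps17, Car4, Psma1, Insig1 and Ogn, and none of the 5 respiratory subunits. The medians of complex I and of complexes II to V were then −0.35 and −0.38.

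**Figure D4:**
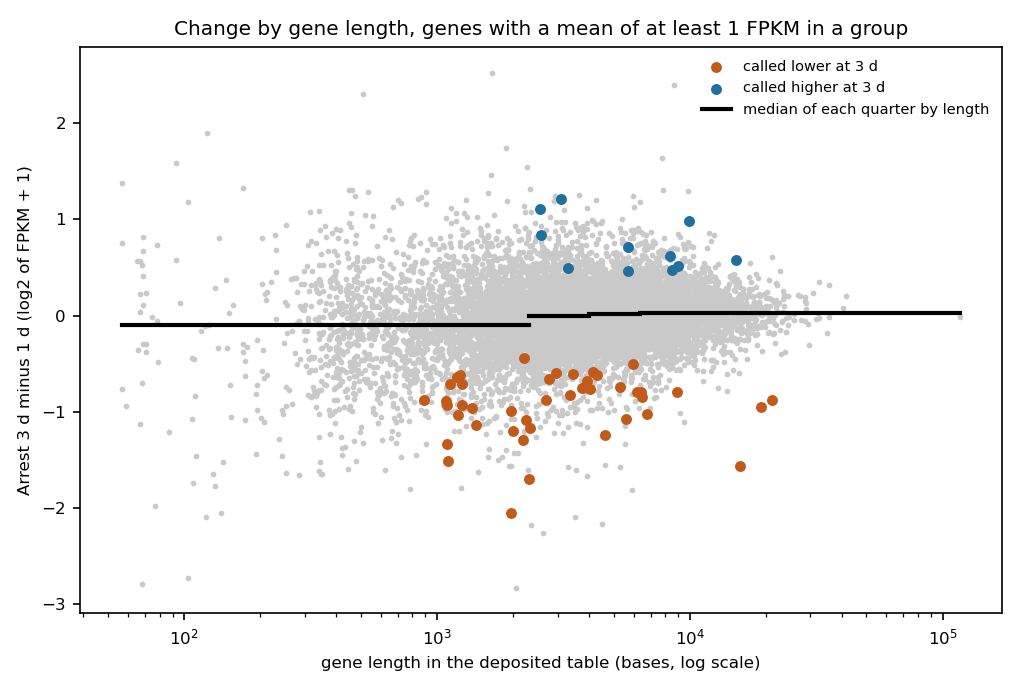
Change from day 1 to day 3 (y axis, log2 of FPKM + 1) against gene length in the deposited table (x axis, bases, log scale) for genes whose mean reached 1 FPKM on either day, with called genes in colour and black lines for the medians of 4 equal classes by length. The median is −0.09 in the shortest class and 0.03 in the longest, and 20 of the genes called lower lie in the shortest class.

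The same days were compared in Adr hearts, which had no arrest. There 14 of the same 13134 genes passed, 0.107%, with 1 higher and 13 lower on day 3, and without Adr day 3 replicate 3 there were 2. Of the 56 genes called in Arrest, Dbi, Mrps17, Ccnl2, Psma1, Mrpl41 and Neat1 were called in Adr too. All 45 that fell changed in the negative direction in Adr and all 11 that rose in the positive direction, where 64.1% and 63.7% of all genes tested with such a change in Arrest did so. For complex I the Adr median was −0.39 and for complexes II to V −0.50. Both medians include Adr day 3 replicate 3, the library with a mitochondrial share of 9.36%. Ndufa11 measured 89.5 FPKM in it and 219 to 282 FPKM in the other Adr libraries of day 3. The part of that library in these medians was not tested. The change itself differed between the arms for no gene (0.0%; limma, 544 genes at an unadjusted p under 0.05, lowest adjusted p 0.76, and 0 by voom with 573 unadjusted). The 3 genes with the lowest p for this difference were ENSMUSG00000120126 (1.85, adjusted p = 0.76), Ppp1r10, a regulatory subunit of protein phosphatase 1 (−1.16, adjusted p = 0.99), and Insig1. In 2 of the fits without 1 library a single gene passed, Tubb3 without Adr day 3 replicate 3 and ENSMUSG00000120126 without Arrest day 3 replicate 2.

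Against Naïve hearts the called genes lay on one side on day 1. All 45 that fell had a day 1 mean above the Naïve mean, as had 73.0% of all tested genes with a negative change, and all 11 that rose had one below it, against 67.9%. The day 3 mean was nearer to Naïve than the day 1 mean in 45 of the 45 and in 9 of the 11, the exceptions being Slc45a4 and Trim34a. The libraries of both days helped to choose these genes, by the gap between the days. A day 3 mean nearer to Naïve is therefore in part built in, and its share over all genes tested was not computed. These counts are a description.

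**Figure D5:**
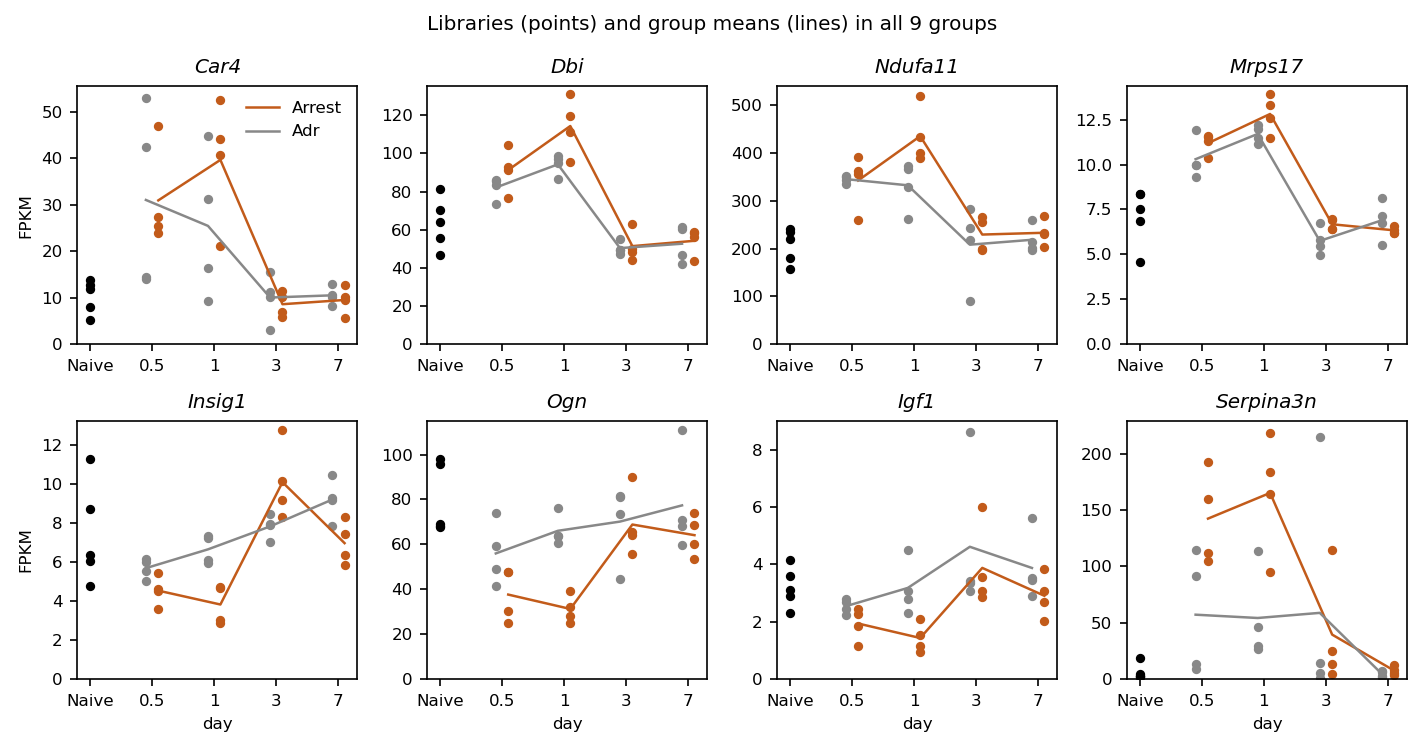
FPKM (y axis) of 8 genes in all 37 libraries by group, with Naïve in black, Adr in grey and Arrest in orange on days 0.5, 1, 3 and 7 (x axis), points for libraries and lines for group means. Car4, Dbi, Ndufa11 and Mrps17 have their highest Arrest mean on day 1 and are near Naïve on days 3 and 7, while Insig1, Ogn and Igf1 have their lowest Arrest mean on day 1.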

How the data were processed

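Left ventricular RNA was sequenced in paired reads at Novogene. For the authors' files, FastQC checked the reads, HISAT2 aligned them and DESeq2 was the authors' test. The deposited table gives FPKM for 56748 genes, beside their lengths and symbols, and 0 of its columns of values were left unused. Counting tool, strand, genome build and annotation are not given in the sources used here, so no coordinates were taken from the table. FPKM times gene length, divided by a step fitted for each library, gave whole fragments in 100% of the values above 0 (tolerance 0.05). These fragments set the counted totals.

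Values were converted to log2(FPKM + 1). Genes with at least 0.5 FPKM in 4 of the 8 Arrest libraries of days 1 and 3 were fitted over all 37 libraries with limma 3.58.1 in R 4.3.3 (1 mean per group, mean-variance trend, no covariates), adjusted by Benjamini-Hochberg with a threshold of 0.05. Adr days 1 and 3, and the difference between the arms, were contrasts of the same fit. Single measures used exact two-sided permutation tests. The script was tested on simulated data. Python 3.11.15 with matplotlib 3.10.9 drew the figures. Promoters came from RefSeq (GRCm38.p6), whose build may not be that of the table.

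The comparison, the gene lists and the tests were chosen with earlier results of these data known. Named genes were the 12 largest falls and 12 largest rises past the threshold whose mean reached 1 FPKM on either day, with no overlap between libraries and a name that was not predicted, filled by lowest p, up to 4 called members of each list, and, where a list had none, its 2 most abundant members. Genes given as values outside this rule, and 3 lists (mitochondrial ribosome, cholesterol and fatty acid synthesis, proteoglycans and insulin-like growth factors), were chosen after their values were seen. So was the split of libraries by description number. Alternatives were the scaling, pseudocount, filter, libraries, covariates, test, removal of a trend with gene length, and leaving out each library.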

Additional observations from a re-analysis of the deposited data

Results flagged for a closer look

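Among 330 sets of 4 values (the named and called genes and the library measures, by day), 27 had 1 library that stood apart, with a gap to the next value above Dixon's 95% limit, and chance marks about 1 set in 20. Of the 27 outlying values 7 came from replicate 1 of day 3 and 6 from replicate 4 of day 1. Their sources were not tested.

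Replicate 4 of day 1 was low in Csdc2 (14.5 FPKM against 25.2 to 27.4 in the other 3), Paf1 (9.38 FPKM), Pdk4 (32.8 FPKM) and Btg2 (15.04 FPKM against 86.4 to 98.3). It was high in Hspa5, an endoplasmic reticulum chaperone (247 FPKM against 68.2 to 80.1), and in C1qb, a complement gene of macrophages (128 FPKM). Replicate 3 of day 1 was high in Ldhb (927 FPKM), Vegfb (215 FPKM), Ckm (339 FPKM), 4930453N24Rik (9.49 FPKM) and the summed skeletal muscle markers (340.2 FPKM). Replicate 2 was high in Cyp4b1 (23.8 FPKM) and in the B cell marker sum (9.34 FPKM). Replicate 1 was low in Cox19 (16.1 FPKM) and in genes with a value above 0 (16812 genes) and high in Dcn (288 FPKM).

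Replicate 1 of day 3 was low in Cd74 (12.5 FPKM against 107 to 122 in the other 3), H2-Eb1 (2.56 FPKM against 35.8 to 43.0), Stard10 (4.70 FPKM) and Trim34a (1.82 FPKM). It was high in Slc22a12 (0.446 FPKM against 0), in the endothelial marker sum (322.6 FPKM) and in the neutrophil marker sum (33.2 FPKM). Replicate 2 of day 3 was high in Tacc2 (16.2 FPKM). Replicate 4 of day 3 was high in Cox19 (11.6 FPKM), Pcna (20.4 FPKM) and depth (30.18 M fragments).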

How the results depend on the processing

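All 1454 alternative values of the 56 called genes kept their direction, and 890 of them stayed at or under the threshold. In part the direction was fixed in advance. Fits such as those of only the 8 or only the 16 Arrest libraries altered the spread and not the change. The genes were also chosen for their change in these same libraries. In place of 56 genes between the Arrest days, 25 passed with quantile scaling, 110 with scaling by counted fragments, 37 with no filter, 135 in the 16 Arrest libraries, 0 in the 8 libraries, 15 with the description number, 267 with sample quality weights, 19 without the gene length trend and 293 without Adr day 3 replicate 3. Between the Adr days, in place of 14, the counts were 23 with quantile scaling, 75 and 49 with scaling by all and by nuclear fragments, 22 with a mean of at least 1 FPKM, 3 with the description number, 3 with quality weights, 41 with voom, 8 without the length trend and 27 without Naïve replicate 4 (left out after seeing the data). Leaving out 1 library of the days compared gave 3 to 169 genes (Arrest) and 2 to 49 (Adr: 7 without replicate 1 of day 1, 3 without 3, 2 without 4, and on day 3, 49 without 1, 2 without 3 and 39 without 4). The difference between the arms gave 0 to 1 gene: Tubb3 without Adr day 3 replicate 3, and ENSMUSG00000120126 without Arrest day 3 replicate 2. The causes were not tested. In the smaller fits, the number of libraries that set the spread and which ones were left out cannot be told apart.

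Same-numbered libraries correlated by −0.08 to 0.13, so the numbers do not pair them. With a replicate block 21 genes passed in Arrest, 11 in Adr and 0 in the difference. No further scaling equals the reported values, which were deposited scaled. Fragments limit low genes such as Meig1, Slc22a12 and Gm44187.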

Other observations

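Cardiac muscle genes outside metabolism had small median changes. Of 25 sarcomere and Z-disc genes tested 19 changed in the negative direction with a median of −0.19, and Pdlim5 was the 1 called. Over all genes tested 0.343% were called lower. Myl2, the ventricular light chain, measured 3969.8, 3898, 5032 and 4518 FPKM on day 1 and 1283, 3479, 3540.4 and 2126 FPKM on day 3 (−0.85, adjusted p = 0.239). Every day 3 value was below every day 1 value, and replicates 1 and 4 of day 3 were the lowest. Atp2a2, the calcium pump of the sarcoplasmic reticulum, changed by −0.01 (adjusted p = 0.993), and the 23 calcium handling genes had a median of 0.07. The 22 sodium and potassium channel genes had a median of 0.24, with 18 in the positive direction. Kcnip2, a subunit of the transient outward channel, measured 14.5 to 28.9 FPKM on day 1 and 20.9 to 79.8 FPKM on day 3 (0.91, adjusted p = 0.208). The 16 genes of the fetal programme and wall stress had a median of −0.15. None of the channel, calcium or fetal genes was called.

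Stress and signalling lists other than those of the report had no called member. Of 25 NRF2 antioxidant genes 22 changed in the negative direction with a median of −0.36, although Fth1, the ferritin heavy chain, changed by −0.13. Medians were −0.18 for 21 metalloproteases and inhibitors, −0.13 for 23 atrophy and autophagy genes, −0.12 for 9 metallothionein and zinc genes, −0.09 for 21 endoplasmic reticulum chaperones, −0.04 for 20 genes of the integrated stress response and −0.02 for 19 clock genes. They were −0.01 for 25 heat shock genes, 0.00 for 25 chemokines and receptors, 0.01 for 19 complement genes, 0.02 for 19 genes of endothelial activation, 0.05 for 19 p53 targets and 0.11 for 24 genes of apelin and endothelial growth signalling. Thbd, the thrombin receptor of endothelium, measured 43.6 to 52.5 FPKM on day 1 and 23.5 to 41.1 FPKM on day 3, without overlap (−0.67, adjusted p = 0.10).

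Markers of cells not described in the report had no called member either. Median changes were 0.07 for 7 fibroblast, −0.02 for 7 endothelial, 0.13 for 7 smooth muscle and pericyte, 0.38 for 6 platelet, −0.36 for 6 red blood cell, 0.34 for 4 atrial, 0.19 for 2 skeletal muscle, 0.00 for 7 mesothelial, −0.18 for 5 Schwann cell and 0.02 for 6 lymphatic markers. Adipocyte markers and those of lung and liver had 1 tested gene each. That of lung, Scgb1a1, a secretory protein of airway cells, measured 42.8 FPKM in replicate 2 of day 3 and 0 to 6.79 FPKM in the other 7 libraries.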
